A study of Mus musculus with 2 samples.

Results

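The genes described here are the 4 mouse Fc gamma receptors, Fcgr1, Fcgr2b, Fcgr3 and Fcgr4, and their adaptors Fcer1g and Tyrobp, 6 of the 16174 genes listed in brown adipose tissue by RNA sequencing. They were taken by name through the Entrez identifier of each line. The set had been selected on the FPKM and expected counts of these same 2 libraries, in particular on the inhibitory Fcgr2b against the activating receptors, so all that is said of their levels is a description, without a test. All 6 were listed in both libraries and reached at least 1 FPKM (fragments per kilobase, corrected for library depth) in one of them, the level from which a gene was counted as measured.

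The knockout library, D3BKO, came from female C57BL/6 mice of 45 weeks with the genotype D3Bfl/fl-UCP1-Cre+/-, in which Cre recombinase, driven by the Ucp1 promoter in brown adipocytes, cuts the floxed D3B alleles. The control library, D3BWT, came from females of the same strain and age with the genotype D3Bfl/fl and no Cre named. Both groups carried the floxed alleles and were fed chow throughout. D3B is read as Dnmt3b, a de novo DNA methyltransferase, from knowledge of the study. There was 1 library per genotype, with 10068359 expected counts in D3BKO and 9666528 in D3BWT, so the spread between mice is unknown, and whether mice were pooled is not stated. Genotype, presence of Cre and sequencer lane (lane 1 for D3BKO, lane 2 for D3BWT) cannot be told apart. Because Cre acts in brown adipocytes, immune cells of the tissue are not its intended target. Intervals are at the 95% level and cover counting error only. Dnmt3b itself was at 0.18 FPKM in D3BKO and 0.39 FPKM in D3BWT, on 7 and 15 counts, with a ratio of 0.462 (0.155 to 1.17) that does not settle whether it was lower. Ucp1, with 4271 FPKM in D3BKO and 4987 FPKM in D3BWT, marked both libraries as brown fat.

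Fc gamma receptors bind the constant part of IgG and let macrophages, monocytes, neutrophils and other leukocytes respond to antibody-coated particles and immune complexes. In the mouse, Fcgr1, Fcgr3 and Fcgr4 encode activating receptors that depend on the common gamma chain, the product of Fcer1g, whose cytoplasmic tail carries a paired tyrosine motif (ITAM) that is phosphorylated by Src-family kinases and then binds the kinase Syk. Fcgr2b encodes the single inhibitory receptor of the family, with a tyrosine motif of its own (ITIM) that recruits the lipid phosphatase encoded by Inpp5d. Tyrobp is a second ITAM adaptor, used by Trem2 and other myeloid receptors rather than by the classical Fc gamma receptors. The balance of activating and inhibitory receptors on a cell sets how strongly it answers an immune complex.

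The codons of these motifs are shown here from GENCODE M21 transcripts paired with the RefSeq transcripts of the deposited files. The capitals mark the tyrosine codon and the 3 codons after it, the last of which encodes leucine. The adaptors each had 2 such units and Fcgr2b had 1. The paired motif was found once in each adaptor and in no Fc gamma receptor. The pattern used to find the Fcgr2b motif also occurred once near the protein ends of Fcer1g, Tyrobp and the activating Fcgr4. That pattern alone therefore does not separate the inhibitory side from the activating side.
Fcer1g: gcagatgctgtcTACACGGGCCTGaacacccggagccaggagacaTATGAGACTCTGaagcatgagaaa
Tyrobp: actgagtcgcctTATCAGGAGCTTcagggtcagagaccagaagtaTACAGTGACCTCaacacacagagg
Fcgr2b: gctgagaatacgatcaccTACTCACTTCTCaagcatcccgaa

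The inhibitory receptor gene differed most between the libraries. Fcgr2b (Entrez gene 14130) was at 15.0 FPKM in D3BKO and 5.78 FPKM in D3BWT, on 206 and 76.56 expected counts. The knockout level was thus 2.60 times the control level (1.98 to 3.40), and the counting intervals of the 2 levels, 13.04 to 17.2 FPKM in D3BKO and 4.59 to 7.27 FPKM in D3BWT, did not overlap. On the scale log2((FPKM + 1) in D3BKO / (FPKM + 1) in D3BWT), which understates the difference of low genes, Fcgr2b stood at 1.24. That was rank 44 from the top among the 11746 measured genes, whose median was -0.03.

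Of the activating receptors, the most abundant was higher in D3BKO and the others differed little or could not be resolved. Fcgr3 (14131), which binds IgG in complexes with low affinity, was at 22.5 FPKM in D3BKO and 15.0 FPKM in D3BWT, a ratio of 1.5 (1.25 to 1.82) on 295 and 188.44 counts. Fcgr1 (14129), the receptor with high affinity for monomeric IgG, was at 1.06 FPKM in D3BKO and 0.73 FPKM in D3BWT. Its ratio of 1.45 (0.765 to 2.78) rested on 27 and 18 counts, so a difference was not detectable at this depth. Fcgr4 (246256), a receptor of monocytes, macrophages and neutrophils, had 30 counts in each library, at 2.49 FPKM in D3BKO and 2.59 FPKM in D3BWT. Its ratio was 0.961 (0.560 to 1.65), an interval that leaves room for a difference in either direction, and its log2 ratio of -0.04 turned to 0.02 when both libraries were brought to one FPKM total.

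The adaptors were the most abundant of the 6 genes. Fcer1g (14127) was at 39.7 FPKM in D3BKO and 24.2 FPKM in D3BWT, a ratio of 1.64 (1.33 to 2.03) on 251 and 147 counts. Tyrobp (22177) was at 47.7 FPKM in D3BKO and 38.3 FPKM in D3BWT, a ratio of 1.25 (1.03 to 1.51) on 255 and 197 counts. Fcer1g thus stood closer to Fcgr3 in its ratio than Tyrobp did. The order of levels per length was the same in both libraries, with Tyrobp first, then Fcer1g, Fcgr3, Fcgr2b, Fcgr4 and Fcgr1. The counting intervals of Tyrobp and Fcer1g overlapped in D3BKO, at 42.1 to 54.0 FPKM and 34.9 to 44.9 FPKM, but not in D3BWT, at 33.2 to 44.1 FPKM and 20.4 to 28.4 FPKM.

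**Figure D1:**
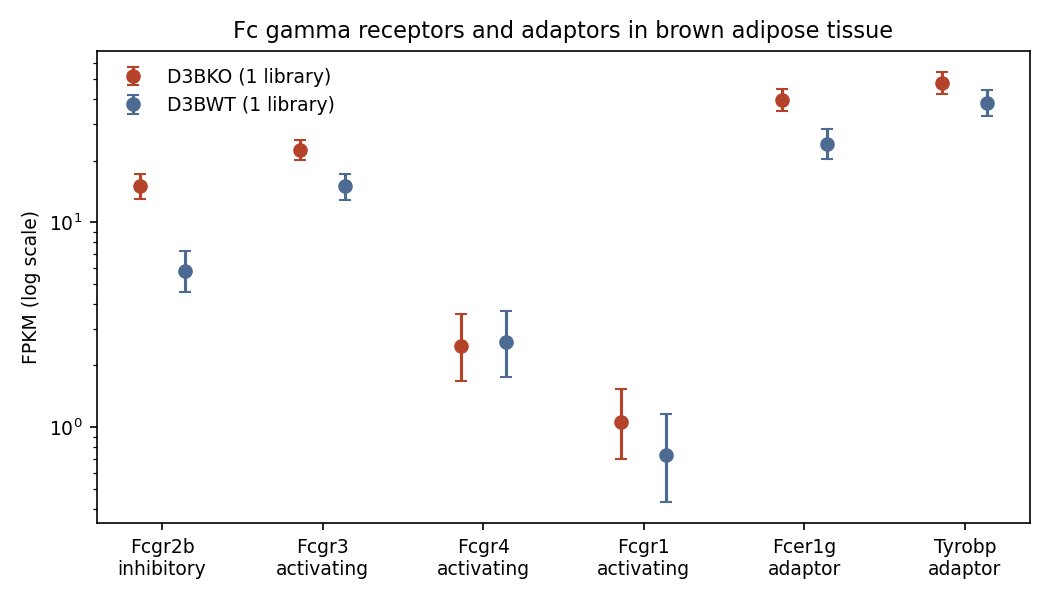
Level of each gene in FPKM on a log axis, with 1 point per library and bars for the 95% counting interval, D3BKO left of D3BWT. Fcgr2b has the widest gap, at 15.0 FPKM in D3BKO and 5.78 FPKM in D3BWT, and the points of Fcgr4 lie at 2.49 and 2.59 FPKM.

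As no replicates allow a test, a fixed rule of size was used, by which a gene counted as higher when the log2 ratio reached the fold and the counting interval of its ratio lay above 1. At 2-fold 1 of the 6 members, Fcgr2b, was higher, against 0.902% of all measured genes, and none was lower, against 0.673%. At 1.5-fold the members counted as higher were 2, Fcgr2b and Fcer1g, against 4.35% of all measured genes, and none was lower, against 3.41%. Fcgr3, at a log2 ratio of 0.56, lay just under the 1.5-fold line, and past it at 0.64 with both libraries brought to one FPKM total. Fcgr1 reached 1 FPKM in D3BKO and not in D3BWT. Counting intervals above 1 were found for 4 of the 6, against 18.2% of measured genes, the members without one being Fcgr1 and Fcgr4. The 6 log2 ratios had a median of 0.43. As the members were chosen with these ratios known, nothing further is read from those counts.

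The make-up of the receptor pool follows from the same values that chose the genes and is given as a description, and it rests on how reads were divided between Fcgr2b and Fcgr3, described further on. The 4 receptors summed to 41.1 FPKM in D3BKO and 24.1 FPKM in D3BWT. Fcgr2b made up 36.5% of that sum in D3BKO and 24.0% in D3BWT. Counted in reads, it had 206 of 558 receptor counts in D3BKO, or 36.9% (exact binomial interval 32.9% to 41.1%), and 77 of 313 in D3BWT, or 24.6% (19.9% to 29.8%), after rounding to whole counts. Fcgr3 was the largest component throughout, at 54.8% of the FPKM sum in D3BKO and 62.2% in D3BWT. Fcgr4 made up 6.06% in D3BKO and 10.8% in D3BWT, and Fcgr1 2.58% in D3BKO and 3.03% in D3BWT.

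**Figure D2:**
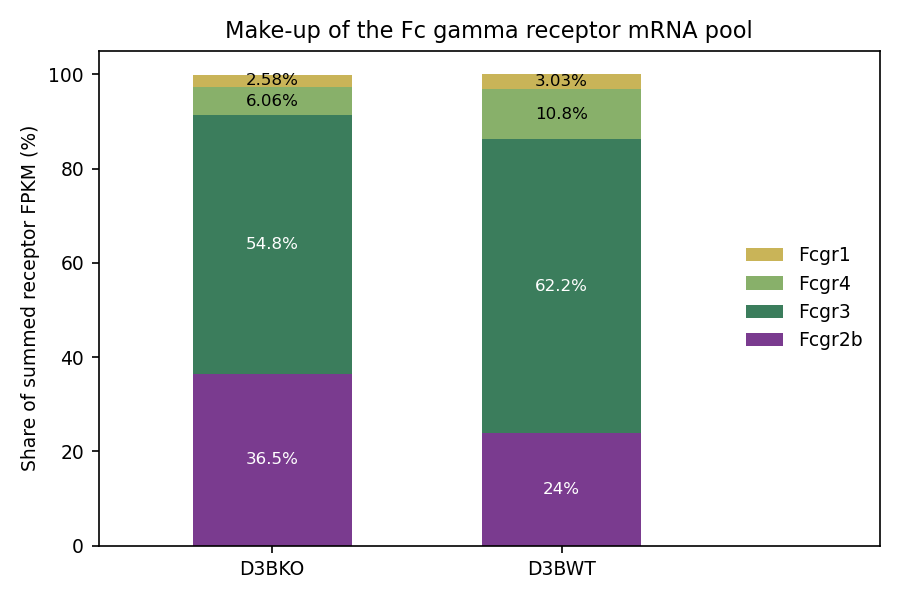
Share of each receptor in the summed FPKM of Fcgr1, Fcgr2b, Fcgr3 and Fcgr4, with 1 stacked bar per library. The inhibitory Fcgr2b takes 36.5% in D3BKO and 24.0% in D3BWT.

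Set directly against the inhibitory receptor, the 3 activating receptors together had 1.74 FPKM per FPKM of Fcgr2b in D3BKO and 3.17 in D3BWT. The knockout balance was 0.549 of the control balance by FPKM, and 0.558 (0.403 to 0.767) by rounded counts. Fcgr3 alone was at 1.5 times Fcgr2b in D3BKO and 2.59 times in D3BWT. Fcgr4 showed the strongest contrast with Fcgr2b, at 0.166 of its level in D3BKO and 0.448 in D3BWT, and the quotient of the libraries by counts was 0.374 (0.203 to 0.690). For Fcgr1 the same values were 0.0706 and 0.126 of the level of Fcgr2b, and the quotient by counts was 0.561 with 1 inside its interval (0.280 to 1.15). Activating receptors also did not keep a fixed proportion among themselves in the point values. Fcgr3 was at 9.05 times Fcgr4 in D3BKO and 5.78 times in D3BWT, but the interval of that quotient by counts, 0.882 to 2.79, included 1.

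In the point values, the common gamma chain kept closer to the activating receptors than to the inhibitory one. This is a description, as the genes were chosen on Fcgr2b against the activating receptors. It also rests on how reads were divided between Fcgr2b and Fcgr3. Fcer1g was at 1.52 FPKM per FPKM of the 3 activating receptors in D3BKO and 1.32 in D3BWT, with a quotient by counts of 1.14 (0.874 to 1.5). Against Fcgr2b, which does not need the gamma chain, it was at 2.64 in D3BKO and 4.18 in D3BWT, with a quotient by counts of 0.638 (0.451 to 0.900). Tyrobp was at 1.20 times Fcer1g in D3BKO and 1.59 times in D3BWT, with a quotient by counts of 0.758 (0.570 to 1.01).

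Some reads of Fcgr2b and Fcgr3 can fit both genes, which limits these values. Both genes lie on chromosome 1, as do Fcgr4 and Fcer1g, and encode nearly the same extracellular domains. Between their RefSeq transcripts NM_010187 and NM_010188, as given by GENCODE M21, the longest identical run was 129 bases of coding sequence, shown here because a read that lies inside it fits both genes.
Shared by Fcgr2b and Fcgr3: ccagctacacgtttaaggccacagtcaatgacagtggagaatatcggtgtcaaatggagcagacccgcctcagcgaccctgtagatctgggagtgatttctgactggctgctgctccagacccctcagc
Of all windows of 100 bases in the Fcgr3 transcript, 3.53% occurred without mismatch in Fcgr2b, and of windows of 50 bases 12.8%. No such window was shared with Fcgr1 or Fcgr4, whose longest runs in common with either gene were at most 14 bases. In D3BWT the expected counts of Fcgr2b and Fcgr3 were not whole, 76.56 and 188.44, and summed to 265, while in D3BKO both were whole, 206 and 295. Their sum does not depend on how reads were divided between them. It was 37.6 FPKM in D3BKO and 20.8 FPKM in D3BWT, a ratio of 1.81, with an interval of 1.56 to 2.12 by counts. For Fcgr2b and Fcgr3 to have the same count ratio, 32.4 control counts, or 17.2% of those given to Fcgr3, would have to belong to Fcgr2b. With that division, an alternative chosen after the data were seen, the quotient of the activating to inhibitory balance by counts would be 0.913. No source used here gives the read length, so the number of ambiguous reads is unknown.

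The inhibitory receptor gene also has 2 annotated forms, which differ by an optional exon of the cytoplasmic tail. The longer form is known from lymphocytes, where the extra residues hinder uptake of the receptor, and the shorter form from macrophages. The exon holds 141 bases in NM_001077189, is absent from NM_010187, and lies at chr1:170963325-170963465 on the minus strand of GRCm38, a later build than the mm9 of the deposited files. It is shown here because the 2 deposited transcripts of Fcgr2b differ in coding sequence by this exon.
Optional exon of Fcgr2b: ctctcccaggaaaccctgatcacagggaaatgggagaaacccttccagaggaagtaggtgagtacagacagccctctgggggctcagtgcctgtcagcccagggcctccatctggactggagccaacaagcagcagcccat
The files give 1 value per gene and none per transcript. The deposited length of Fcgr2b was 1415 bases in D3BKO and 1422.24 bases in D3BWT. A gene with 1 transcript had the same length in both libraries in all 11309 cases listed in both, so a length that differs reflects another estimated mix of transcripts, though the mix itself cannot be read from it. B cells, which use the longer form, were near the limit of detection by the marker Ms4a1, which had 4 counts in D3BKO and 5 in D3BWT (named for this check after its values were seen).

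The promoters of the receptors were compared because the members differed in their ratios. RefSeq windows of GRCm38.p6 were found for 5 of the 6 members, and the 150 bases before the start are shown, 5′ to 3′ on the strand of the gene. The motifs searched over 250 bases before the start, on both strands, were GAGGAA, a core bound by the myeloid factor PU.1 (Spi1), and TTCNNNGAA, the form bound by STAT factors after interferon. The motifs did not overlap each other here, and capitals mark matches. For Fcgr3 the first of 2 listed starts is shown.
Fcgr2b, chr1:170976072-170976221, minus strand: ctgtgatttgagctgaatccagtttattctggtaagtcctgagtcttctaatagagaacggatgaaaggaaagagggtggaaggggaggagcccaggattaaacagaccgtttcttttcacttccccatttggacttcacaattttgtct
Fcgr3, chr1:171059404-171059553, minus strand: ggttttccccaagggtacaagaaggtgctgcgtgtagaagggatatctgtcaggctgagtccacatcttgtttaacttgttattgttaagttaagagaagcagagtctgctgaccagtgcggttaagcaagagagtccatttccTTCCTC
Fcgr4, chr1:171018776-171018925, plus strand: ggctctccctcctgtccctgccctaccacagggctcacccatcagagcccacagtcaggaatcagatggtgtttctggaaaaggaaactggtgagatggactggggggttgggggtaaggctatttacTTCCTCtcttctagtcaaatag
Fcgr1, chr3:96293970-96294119, minus strand: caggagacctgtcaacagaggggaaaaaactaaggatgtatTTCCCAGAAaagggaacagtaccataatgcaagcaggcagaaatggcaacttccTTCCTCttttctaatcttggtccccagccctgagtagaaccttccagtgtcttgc
Fcer1g, chr1:171234350-171234499, minus strand: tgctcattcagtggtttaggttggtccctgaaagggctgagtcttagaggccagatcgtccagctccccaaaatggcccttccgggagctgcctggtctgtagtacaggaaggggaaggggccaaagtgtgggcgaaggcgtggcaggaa
GAGGAA or its reverse complement TTCCTC occurred in the windows of the 3 activating receptors and not in those of Fcgr2b and Fcer1g, while 23.3% of all 32851 promoter windows of the same length held it. TTCNNNGAA occurred once, in Fcgr1, and in 7.02% of all windows. The windows held 1 CpG in Fcgr1 and Fcgr4, 4 in Fcgr3 and 5 in Fcgr2b and Fcer1g, against a median of 6 over all windows. A match describes the letters and not binding, and methylation was not measured.

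Fc gamma receptors are genes of leukocytes, and in bulk tissue fewer cells of a type and less RNA per cell cannot be told apart. The marker list of macrophages was higher in D3BKO as well. Among 22 markers, 20 were measured, and all but 1 of these lay above 0 on the log2 scale. By the 1.5-fold rule 8 counted as higher, against 4.35% of all measured genes, and none as lower. The list median was 0.53 against -0.03 over all measured genes, and its summed level was 968 FPKM in D3BKO and 686 FPKM in D3BWT. The part of this in the receptor values was not tested. Csf1r, the growth factor receptor of macrophages, had a ratio of 1.58 (1.39 to 1.79), Adgre1, which encodes the surface antigen F4/80, 1.51 (1.27 to 1.82), and the lysosomal glycoprotein gene Cd68 1.97 (1.54 to 2.53). Mrc1, the mannose receptor, had 1.76 (1.53 to 2.04) and Mertk, a receptor for the uptake of dead cells, 2.57 (1.82 to 3.69). The log2 ratio of Fcgr2b was above that of 19 of the 20 measured markers, the exception being Lyve1, a hyaluronan receptor of perivascular macrophages and lymphatic endothelium, with an FPKM ratio of 3.40 (2.46 to 4.79). Spi1, the gene of PU.1, was at 5.51 FPKM in D3BKO and 3.71 FPKM in D3BWT, a ratio of 1.49 (1.01 to 2.20).

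Divided by immune cell markers, the members differed from each other. Fcgr2b was at 0.890 FPKM per FPKM of Csf1r in D3BKO and 0.540 in D3BWT, a quotient of 1.65, and its quotients were 1.72 per Adgre1 and 1.32 per Cd68. Per Ptprc, the gene of the leukocyte antigen CD45, it was at 3.96 in D3BKO and 3.68 in D3BWT, a quotient of 1.08, since Ptprc itself had a ratio of 2.41 (1.85 to 3.17). Fcgr3, Fcer1g and Fcgr1 had quotients per Csf1r of 0.955, 1.04 and 0.922, close to 1, and between 0.602 and 0.680 per Ptprc. Fcgr4 had point quotients below 1 by every denominator used, with 0.610 per Csf1r and 0.398 per Ptprc, and Tyrobp lay between, with 0.791 per Csf1r and 0.516 per Ptprc. None of these quotients has a counting interval. Fcgr4 rested on 30 counts in each library, with an interval of 0.560 to 1.65 for its own ratio. All its quotients share that value, so the denominators are not repeated support. The same holds for Fcgr2b, which was also selected on its level. Its quotients rest on how reads were divided between Fcgr2b and Fcgr3. Summed with Fcgr3 it had a ratio of 1.81. That was above the ratios of Csf1r (1.58) and Adgre1 (1.51) and below those of Cd68 (1.97) and Ptprc (2.41).

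**Figure D3:**
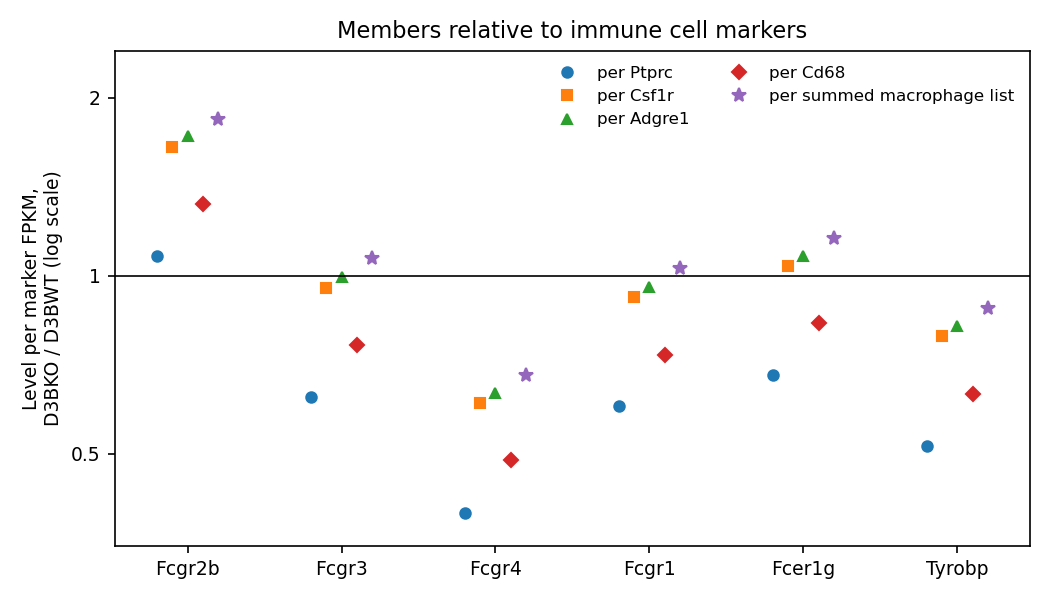
Level of each gene divided by the level of an immune cell marker or of the summed macrophage list, as the quotient of D3BKO over D3BWT on a log axis. Fcgr2b lies above 1 for each of the 5 denominators, from 1.08 to 1.84, and Fcgr4 below 1 for each, from 0.398 to 0.681. The points have no counting intervals, and all points of a gene share its own ratio. Those of Fcgr2b rest on the division of reads between Fcgr2b and Fcgr3.

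Other cells that carry these receptors were compared through their markers. Of 10 monocyte markers 5 were measured, all above 0, with a median of 0.59 that was 0.26 without the filter at 1 FPKM. Vcan, a matrix proteoglycan gene, passed that filter through D3BKO alone, at 1.25 FPKM in D3BKO and 0.49 FPKM in D3BWT, while the defining Ly6c2 did not pass, at 0.27 FPKM in D3BKO and 0.81 FPKM in D3BWT (named after its value was seen). Of the measured markers Ccr2, the chemokine receptor of inflammatory monocytes, had a ratio of 1.79 (1.34 to 2.41) and F13a1, a coagulation factor of monocytes and macrophages, 1.85 (1.59 to 2.15). Of 10 neutrophil markers 3 were measured, with a median of 0.80 that was 0.35 without the filter and 0.40 with CPM, and the defining Ly6g was not listed in either library. S100a8, which encodes a calcium-binding protein of neutrophils, was at 9.75 FPKM in D3BKO and 3.99 FPKM in D3BWT, on 33 and 13 counts. Mmp9, a protease gene under the filter, went the other way, at 0.16 FPKM in D3BKO and 0.76 FPKM in D3BWT, a ratio of 0.211 (0.062 to 0.562), and is named after its value was seen. Mast cells, which use Fcer1g in the IgE receptor, had a median of -0.09 over 7 measured markers, and the protease gene Mcpt4 was at 5.20 FPKM in D3BKO and 8.94 FPKM in D3BWT, a ratio of 0.582 (0.399 to 0.839). Kit, the growth factor receptor of mast cells, went the other way with a ratio of 1.41 (1.03 to 1.95), and the tryptase gene Tpsb2 had 1.13 (0.781 to 1.65). T cell markers stayed under 1 FPKM in both libraries, and among natural killer and B cell markers those measured were Gzma and Ebf1. Their levels were 0.60 FPKM in D3BKO and 1.13 FPKM in D3BWT for Gzma, and 14.9 FPKM in D3BKO and 12.6 FPKM in D3BWT for Ebf1, a gene that adipocytes also express. Among 5 measured dendritic cell markers 4 were above 0, with a median of 0.53 that was 0.20 without the filter. Itgax and Batf3 passed the filter through D3BKO alone, and Cd209a through D3BWT alone. Batf3 was at 1.81 FPKM in D3BKO and 0.94 FPKM in D3BWT. Itgax had a ratio of 3.11 (2.04 to 4.71) with reads in part shared, while Cd209a, a lectin of monocyte-derived cells, was at 0.49 FPKM in D3BKO and 1.59 FPKM in D3BWT. The lipid-associated macrophage list had 10 of 11 measured genes above 0 and 1 below, with a median of 0.47. That median was 0.32 when the average level of a gene had to reach 5 FPKM. Spp1, at 1.43 FPKM in D3BKO and 0.75 FPKM in D3BWT, and Itgax passed the usual filter through D3BKO alone. Cd9 had a ratio of 2.07 (1.65 to 2.61) and Gpnmb 1.97 (1.58 to 2.47). Lpl, with reads in part shared, went the other way at 0.961 (0.948 to 0.975). Spp1 and Lpl are named after their values were seen.

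Fcgr2b is also expressed by the scavenging endothelium of the liver, so vessel markers were set beside it. Most endothelial genes had lower values in D3BKO, with 8 of 11 measured genes below 0, 4 at least 1.5-fold lower against 3.41% of all measured genes, and a median of -0.31. Cldn5, a tight junction gene, was at 36.8 FPKM in D3BKO and 74.4 FPKM in D3BWT, a ratio of 0.495 (0.444 to 0.552), and Emcn had 0.558 (0.466 to 0.666). Stab2, the defining gene of scavenging endothelium, had 6 counts in D3BKO and 1 in D3BWT. Stab1, shared by scavenging endothelium and macrophages, was at 8.55 FPKM in D3BKO and 6.07 FPKM in D3BWT, a ratio of 1.41 (1.25 to 1.59), against the direction of the list (both named after their values were seen). Brown adipocyte genes had a median of -0.16, with Dio2, which activates thyroid hormone, at a ratio of 0.620 (0.571 to 0.674) and the fatty acid elongase gene Elovl3 at 38.3 FPKM in D3BKO and 23.2 FPKM in D3BWT.

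The first kinases and effectors behind the activating receptors differed from gene to gene. Of 20 genes 17 were measured, 13 above 0 and 4 below, but 5 of the 13 reached 1 FPKM in D3BKO alone, Src, Btk, Lcp2, Vav1 and Pik3ap1, so the count is no support for a shift. By the 1.5-fold rule 2 counted as higher, against 4.35% of all measured genes, and none as lower, against 3.41%. The median was 0.30, with 0.53 at a pseudocount of 0.1 and 0.18 at a pseudocount of 5. Syk, the kinase that docks on the phosphorylated gamma chain, was at 3.37 FPKM in D3BKO and 1.70 FPKM in D3BWT, a ratio of 1.98 (1.52 to 2.60). Pik3ap1, an adaptor that brings in PI3K, had a ratio of 2.28 (1.25 to 4.25) on 40 and 17 counts. Just under the 1.5-fold line on the log2(FPKM + 1) scale were Btk, a Tec-family kinase, with a ratio of 2.14 (1.18 to 4.06), and Vav1, an activator of Rac GTPases, with 2.18 (1.35 to 3.61). Lyn, a Src-family kinase that starts the signal, had a ratio of 1.04 (0.867 to 1.25), and is named after its value was seen.

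On the inhibitory side, of 11 phosphatases and regulators 9 were above 0 and 2 below. Dok3, among those above 0, passed the filter through D3BKO alone, at 1.73 FPKM in D3BKO and 0.90 FPKM in D3BWT. The median was 0.40, with 0.51 at a pseudocount of 0.1 and 0.19 at a pseudocount of 5. By the 1.5-fold rule 2 counted as higher, against 4.35% of all measured genes, and none as lower, against 3.41%. Ptprc, a phosphatase that removes the inhibitory phosphate from Src-family kinases, was one of them, and it also counts all leukocytes. Inpp5d, the phosphatase that Fcgr2b recruits, was at 3.01 FPKM in D3BKO and 2.04 FPKM in D3BWT, a ratio of 1.48 (1.13 to 1.93), named after its value was seen. The docking proteins Dok1 and Dok2 had ratios of 1.84 (1.12 to 3.12) and 1.64 (1.09 to 2.48), and Dok3 had 1.92 (0.953 to 4.07). Ptpn6, the tyrosine phosphatase of most other ITIM receptors, was at 2.90 FPKM in D3BKO and 2.63 FPKM in D3BWT, a ratio of 1.10 (0.754 to 1.61), named after its value was seen.

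**Figure D4:**
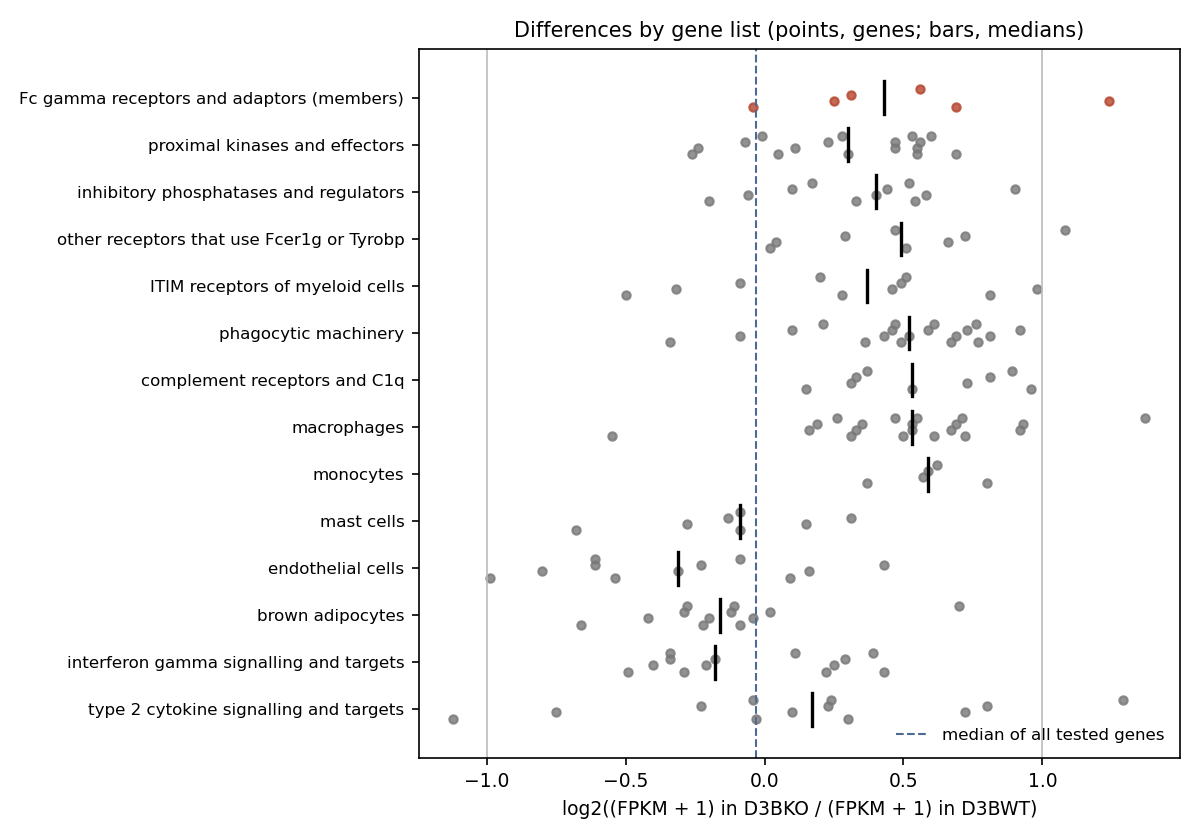
log2((FPKM + 1) in D3BKO / (FPKM + 1) in D3BWT) of each measured gene, by list, with a black bar at the list median, grey lines at -1 and 1 and a dashed line at the median of all measured genes, -0.03. Fcgr2b is the member point at 1.24, and the medians of the members, macrophages and endothelial cells are 0.43, 0.53 and -0.31.

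Receptors that share the adaptors, and other inhibitory receptors, gave values to set beside Fcgr2b. Of 23 genes for receptors and partners that pair with Fcer1g or Tyrobp, 8 were measured, all above 0, with a median of 0.49 that was 0.20 without the filter. Hcst and Clec4d passed the filter through D3BKO alone, and 5 genes under it, Clec4e, Siglech, Sirpb1a, Fcer1a and Ncr1, lay below 0. By the 1.5-fold rule 2 counted as higher, against 4.35% of all measured genes. Cd300ld, a myeloid receptor that signals through the gamma chain, was at 4.57 FPKM in D3BKO and 2.38 FPKM in D3BWT, a ratio of 1.92 (1.38 to 2.71). Trem2, the lipid-sensing partner of Tyrobp, had a ratio of 1.5 (1.08 to 2.09). Hcst, another small adaptor, rested on 11 and 3 counts, and its ratio of 3.54 had an interval of 0.931 to 19.7. Among 15 myeloid and related ITIM receptors 10 were measured, 7 above 0 and 3 below, with a median of 0.37. Lilrb4a was at 9.99 FPKM in D3BKO and 4.57 FPKM in D3BWT, a ratio of 2.19 (1.62 to 3.04), and Pirb had 1.97 (1.52 to 2.56), both with reads shared with related genes. Clec12a had 1.58 (1.12 to 2.26), while Cd72, an ITIM receptor of B cells and some macrophages, was at 4 FPKM in D3BKO and 6.08 FPKM in D3BWT, a ratio of 0.658 (0.462 to 0.934). The inhibitory receptors did not share one direction.

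Fc receptors outside the gamma family did not share one direction, with 1 of the measured genes above 0 and 2 below. Fcgrt, the neonatal Fc receptor that recycles IgG and albumin in endothelium and macrophages, was the most abundant Fc receptor gene, at 174.6 FPKM in D3BKO and 228.8 FPKM in D3BWT, a ratio of 0.763 (0.727 to 0.801). Of 14 such genes 3 were measured, with a median of -0.10. Trim21, a cytosolic antibody receptor, had 0.908 (0.650 to 1.27). Fcrls, a scavenger-type relative in mouse macrophages, had 1.53 (1.19 to 1.97). The IgE receptor chain Fcer1a had 2 counts in D3BKO and 6 in D3BWT, and is named after its value was seen.

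Genes for what follows receptor engagement had mostly higher values in D3BKO, by differing amounts. Of 19 genes of the phagocytic machinery, 17 were above 0, with a median of 0.52, and by the 1.5-fold rule 9 counted as higher, against 4.35% of all measured genes. Lamp1, a lysosomal membrane gene named after its value was seen, was at 300.5 FPKM in D3BKO and 319.1 FPKM in D3BWT, a ratio of 0.942 (0.911 to 0.974). The oxidase subunit gene Ncf1 had a ratio of 2.09 (1.46 to 3.03), and the integrin chain gene Itgb2 had 1.89 (1.55 to 2.31). Complement receptors and C1q genes, which take part in clearing the same immune complexes, had 9 of 9 measured genes above 0 and a median of 0.53. Without the filter at 1 FPKM the median was 0.37. Itgax passed that filter through D3BKO alone, at 2.55 FPKM in D3BKO and 0.82 FPKM in D3BWT. Vsig4 and Cr2, under the filter, lay below 0. They were not listed in D3BKO and were at 0.37 and 0.10 FPKM in D3BWT (both named after their values were seen). C5ar1, the receptor for C5a, was at 5.19 FPKM in D3BKO and 2.34 FPKM in D3BWT, a ratio of 2.22 (1.61 to 3.10).

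Cytokine lists were described because interferon gamma raises Fcgr1 and Fcgr4 and type 2 cytokines raise Fcgr2b in cultured myeloid cells. Interferon gamma signalling and target genes had a median of -0.18, with 6 of 13 measured genes above 0 and 7 below, and their mean was -0.04. Without the filter the median turned to 0.11, so the list had no settled direction. On the log2(FPKM + 1) scale no gene of it met the 1.5-fold rule, against 4.35% of all measured genes higher and 3.41% lower. Cxcl9, a chemokine induced by interferon gamma, was at 6.85 FPKM in D3BKO and 10.02 FPKM in D3BWT, a ratio of 0.684 (0.566 to 0.823), and Nos2 had 0.617 (0.410 to 0.918). Irf8 and Jak1 went the other way, with 1.49 (1.09 to 2.06) and 1.32 (1.22 to 1.43). Counting intervals lay above 1 for 4 genes of the list, against 18.2% of all measured genes, and below 1 for 4, against 22.4%. Type 2 genes were split, with a median of 0.17 that was 0.04 without the filter. By the 1.5-fold rule 3 of 12 measured genes counted as higher, against 4.35% of all measured genes, and 2 as lower, against 3.41%. Retnla, a product of alternatively activated macrophages, was at 286.9 FPKM in D3BKO and 116.9 FPKM in D3BWT, a ratio of 2.45 (2.23 to 2.70), and Clec10a, a lectin receptor, had 1.88 (1.41 to 2.50) with reads in part shared. Klf4 and Irf4, transcription factors that also act outside macrophages, had 0.572 (0.498 to 0.656) and 0.333 (0.248 to 0.444). Arg1 and Chil3, under the filter, also lay below 0 (both named after their values were seen). Arg1 was not listed in D3BKO and had 6 counts in D3BWT. Chil3 had 3 counts in D3BKO and 7 in D3BWT.

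With 2 libraries, likeness between genes can be given only as closeness of level and ratio. By Euclidean distance of log2(FPKM + 1) over both libraries, the genes nearest to Fcgr2b were Slc6a13, at 15.8 FPKM in D3BKO and 6.00 FPKM in D3BWT, and Map3k6, at 14.7 FPKM in D3BKO and 6.65 FPKM in D3BWT. Nearest to Fcgr3 were Cbr2 and Foxo1, to Fcer1g Pf4 and Rnase4, to Tyrobp Pfkp and Vps35, to Fcgr4 Zfp438 and Nsg1, and to Fcgr1 Slc7a1 and Gm7609.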

How the data were processed

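Polyadenylated RNA of brown adipose tissue was sequenced, 1 library per genotype, per the labels' protocols, which do not mention strand. The authors deposited an expected count, an FPKM value and a transcript length per gene, per the file headers. RSEM and mm9 are named in the submitters' processing notes; no source used here names the aligner. Expected counts divide reads that match several genes, and 94.1% (D3BKO) and 94.0% (D3BWT) were whole to within 0.05. FPKM is relative to the library, so abundant genes shift all others. Genes absent from a list count as 0. RefSeq gave the symbols (GRCm38.p6, by Entrez identifier) of 16134 of 16174 genes.

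With 1 library per group no test was possible. Ratios are of FPKM, with exact conditional Clopper-Pearson intervals from rounded expected counts, scaled to FPKM. The intervals treat reads as independent molecules, and PCR copies would make them too narrow. The quotients of 2 ratios have exact conditional intervals of the odds ratio. The rule of size used log2 with a pseudocount of 1 FPKM, a minimum of 1 FPKM in either library, folds of 2 and 1.5, and an interval that excludes 1. For an unlisted gene, 3 counts were taken as the upper limit, or 0.298 CPM in D3BKO and 0.310 CPM in D3BWT. The members, the 21 lists (the members among them) and the rule for named genes (members, Dnmt3b, Ucp1, Spi1, denominators, nearest genes, and up to 4 genes per list with the largest absolute log2 ratio) were chosen with earlier results of these data known. Alternatives were other pseudocounts, filters, scalings, counts in place of FPKM, and receptors left out. Python 3.11.15, scipy 1.17.1 and pandas 2.3.3 were used. Some genes of the lists are not reported here by name.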

Additional observations from a re-analysis of the deposited data

How the results depend on the processing

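The directions of the 6 members' log2 ratios and the lower activating to inhibitory balance in D3BKO were set against the alternatives. Fcgr2b, Fcgr3, Fcer1g and Tyrobp stayed above 0 under all 6 pseudocounts and scalings tried, while Fcgr4 lay between -0.05 and 0.03. With a pseudocount of 5 the log2 ratio of Fcgr2b was 0.89, under the 2-fold line. Fcgr3 passed the 1.5-fold line at 0.59 with a pseudocount of 0.1, 0.64 with one FPKM total and 0.66 without the 20 most abundant genes, which would make 3 members higher. Without Fcgr3 the inhibitory share was 80.9% in D3BKO and 63.5% in D3BWT, and the balance 0.236 and 0.574, since Fcgr3 holds most activating reads. Control reads of Fcgr2b and Fcgr3 redivided to equal count ratios, an alternative chosen after seeing the data, gave a quotient of the balance by expected counts of 0.913 in place of 0.553. Without the filter at 1 FPKM the interferon gamma median turned from -0.18 to 0.11, and the medians of adaptor-using receptors, monocytes, neutrophils and type 2 genes came to 0.20, 0.26, 0.35 and 0.04. Those of dendritic cells and of complement receptors and C1q came to 0.20 and 0.37. The macrophage median was 0.38 with a pseudocount of 5. Genes at least 2-fold higher and lower were 281 and 196 with a pseudocount of 0.1, 15 and 14 with 5, 224 and 155 with CPM, and 42 and 27 with a mean of at least 5 FPKM, against 106 and 79. At 1.5-fold the lower genes were 619 with a pseudocount of 0.1, and the higher and lower genes were 136 and 107 with 5, 831 and 677 with CPM, and 221 and 191 with a mean of at least 5 FPKM, against 511 and 401. With one common FPKM total 144 were at least 2-fold higher and 72 lower, and without the 20 most abundant genes 150 and 68. Fewer genes tested or a larger pseudocount lower such counts by construction, and otherwise the cause was not tested. No paired analysis was possible because each genotype has 1 library. Depth limits Fcgr1 and Fcgr4, at 18 to 30 counts.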
